A study of Mus musculus with 5 samples.

Results

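The 30 genes described here encode the enzymes of fatty acid oxidation, in mitochondria and in peroxisomes. They were listed by name as a pathway and not by a cut on their values, but with earlier results of these data known. Of these 30 genes, 29 were matched by a probe set (a group of short array probes read as 1 value) that carries a single gene symbol, out of 18193 genes matched in that way on the array. They were read by 53 of the 45101 probe sets. Cpt1b, the muscle form of carnitine palmitoyltransferase 1, was named only on 1 probe set that also names other genes, so no value is given for it. Of the 29 genes, 21 encode mitochondrial enzymes, 6 peroxisomal enzymes (Crot, Decr2, Acox3, Ehhadh, Hsd17b4 and Acaa1a) and 2 enzymes found in both compartments (Crat and Eci2).

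RNA had been taken from CD4 T cells of BALB/c mouse spleen and measured on Affymetrix arrays, 1 array for every one of the 5 conditions. These were effector Th1 cells labelled TOFA, effector Th1 cells labelled Rap, memory Th1 cells, control effector Th1 cells and naive CD4 T cells. Effector cells had been cultured for 5 days with IL-2 (15 ng/ml) and IL-12 (10 ng/ml), cytokines of T cell growth and of the interferon-gamma making Th1 type, while the memory and naive cells are named primary and not cultured (the culture text is attached to all 5 samples). TOFA inhibits acetyl-CoA carboxylase, the enzyme that makes malonyl-CoA. The labels do not expand Rap, and they give no dose for TOFA or Rap, no origin of the memory cells, no number of mice and no sorting gate. With no replicate in any group there is no error between samples and no test. "Higher" and "lower" therefore compare single arrays, and genes were called from a 2-fold difference.

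Long-chain fatty acids enter mitochondria as carnitine esters. Carnitine palmitoyltransferase 1 on the outer membrane makes the ester and is inhibited by malonyl-CoA, a carrier takes it across the inner membrane, and carnitine palmitoyltransferase 2 restores the acyl-CoA. Each turn of the oxidation spiral then runs through an acyl-CoA dehydrogenase, a hydratase, a hydroxyacyl-CoA dehydrogenase and a thiolase, and passes electrons to the electron transfer flavoprotein. Peroxisomes run a parallel spiral on very long and branched chains, with an oxidase at its start. In T cells, effector growth is known for synthesis of fatty acids, and memory cells for the use of their oxidation.

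Values are signals after quantile normalization, which gives the 5 arrays the same distribution, and differences are given on the log2 scale. Signals at or under 43.4, the 40th percentile, were raised to that floor before comparison. The probe set with the highest mean stood for each gene, and for all 29 oxidation genes it was above the floor on all 5 arrays. Of the 53 probe sets, 45 were above the floor on all arrays and 4 on none. Probe sets of the same gene, over all genes with more than 1, differed with an SD of 0.33 (TOFA against control effector), 0.34 (Rap against control effector), 0.30 (TOFA against Rap), 0.57 (control effector against naive), 0.43 (memory against naive) and 0.55 (memory against control effector) on the log2 scale. This spread is the only internal measure of error, and it leaves out differences between cultures or mice.

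All 6 T cell markers, Cd4 among them, were above the floor on every array. All 6 were lower in control effector (median -0.83) and in memory cells (median -0.54) than in naive cells. Cd4 had 483 in memory and 897 in naive cells. The Th1 effector markers summed to signals between 25842 and 39422 on the 3 effector arrays, against 1288 on the memory array and 819 on the naive array. The single markers differed between the effector arrays. In the order TOFA, Rap and control effector, Gzmb had 13979, 26476 and 28439.8, and Ifng 2301, 980.1 and 4108. Tbx21 had 2401, 2967 and 2036, and Il2ra 7160.3, 8999 and 4765 in that order. Markers of other spleen cells differed between arrays. The 6 myeloid markers summed to 278 (TOFA), 201 (Rap), 36044 (memory), 176 (control effector) and 5596 (naive), with 2, 1, 6, 1 and 5 of them above the floor. The 4 measured B cell markers summed to 2125, 2264, 45646, 1651 and 31251 in the same order of arrays. Most of the memory and naive sums came from Ighm (28141.5 in memory and 27390.7 in naive cells). The other B cell markers were further apart, with 11123.5 in memory and 2405.5 in naive cells for Ms4a1. Cd79b had 6089 in memory and 1338 in naive cells, and Cd79a 292 in memory and 117 in naive cells. In such bulk samples, fewer cells of a type and less RNA per cell cannot be told apart.

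TOFA effector cells were set against control effector cells to ask what differs when acetyl-CoA carboxylase is inhibited in culture. Their oxidation genes had nearly the control level. None of the 29 was 2-fold apart, while 4.61% of the 12850 genes compared were (2.47% higher and 2.14% lower). The median difference was 0.05, with 16 genes above 0 and 13 below, against a median of 0.012 over all genes, of which 51.3% lay above 0 and 48.6% below. Cpt1a, the liver-type carnitine palmitoyltransferase 1 and the step that malonyl-CoA inhibits, had signals of 1065 in TOFA and 1029 in control effector cells (difference 0.05).

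The 5 genes higher in TOFA cells by more than the probe set spread were Acox3, Slc25a20, Hsd17b10, Decr1 and Eci1, and none was lower by that much, against 20.4% and 18.4% of all genes. Acox3, an oxidase that starts the peroxisomal spiral on branched chains, differed by 0.55, at low signals of 104 in TOFA and 70.9 in control effector cells. Slc25a20, the carnitine-acylcarnitine carrier of the inner membrane, had signals of 1959 in TOFA and 1411 in control effector cells (difference 0.47), and its other probe set was past 2-fold with 810.2 in TOFA and 384 in control effector cells (difference 1.08). Hsd17b10, a hydroxyacyl-CoA dehydrogenase that also serves mitochondrial RNA processing, differed by 0.38, Decr1, the reductase for unsaturated chains, by 0.36, and Eci1, an isomerase for unsaturated chains, by 0.33. The median was 0.05 over the 21 mitochondrial genes and 0.10 over the 6 peroxisomal genes, and the difference between compartments was not tested.

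Rap effector cells were then set against that control array, so the TOFA and Rap comparisons share it. Most oxidation genes were lower in Rap cells by a small amount, and none was 2-fold apart, while 5.70% of the 12839 genes compared were (1.79% higher and 3.91% lower). Of the 29 genes, 23 lay below 0 and 6 above, with a median of -0.29, against a median of -0.0049 over all genes, of which 50.5% lay below 0 and 49.4% above. Among genes with both signals at or above 150, the 60th percentile, 49.7% lay below 0. Lower by more than the probe set spread were 12 genes, against 21.1% of all genes, and 1 (Acaa1a) was higher by that much, against 18.2%.

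By role, all 7 hydratase, dehydrogenase and thiolase genes and all 3 electron transfer flavoprotein genes lay below 0 in Rap cells. So did 5 of 6 acyl-CoA dehydrogenase genes, 3 of 5 carnitine transfer genes, 3 of 4 genes for unsaturated chains and 2 of 4 genes of the peroxisomal spiral. The lowest were Hadh, the short-chain hydroxyacyl-CoA dehydrogenase, with signals of 3725 in Rap and 5927 in control effector cells (difference -0.67), and Acadl, the long-chain acyl-CoA dehydrogenase, with 4530.4 in Rap and 7095 in control effector cells (difference -0.65). The other probe sets of Hadh differed by -0.40 and -2.03, the last at low signals of 24.3 in Rap (under the floor, so at least 4.09-fold lower) and 177 in control effector cells. Cpt1a had signals of 780.1 in Rap and 1029 in control effector cells (difference -0.40), and its 2 other probe sets differed by -0.58 and -0.44.

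The 6 oxidation genes above 0 in Rap cells were Acaa1a (0.39), Acox3 (0.34), Cpt2 (0.23), Acad9 (0.07), Slc25a20 (0.05) and Decr1 (0.03). Acaa1a encodes the peroxisomal thiolase, and its probe sets can match other transcripts, its other probe set differing by -0.27. Further oxidation genes have probe sets of that kind, among them the chosen ones of Hadh, Crat and Acadsb. The other probe sets of Cpt1a and Cpt2 and the brighter other one of Hadhb are also of that kind. The other probe set of Cpt2 was lower in Rap than in control effector cells, with 18.9 in Rap, under the floor, and 68.3 in control effector cells, so the direction of Cpt2 differs between its probe sets. The mitochondrial median was -0.26 and the peroxisomal median -0.18, a difference that was not tested. Over all probe sets of the oxidation genes, 38 of the 47 compared lay below 0. This count holds several probe sets of the same gene, so it largely repeats the count by gene, and no share over all probe sets was taken.

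**Figure D1:**
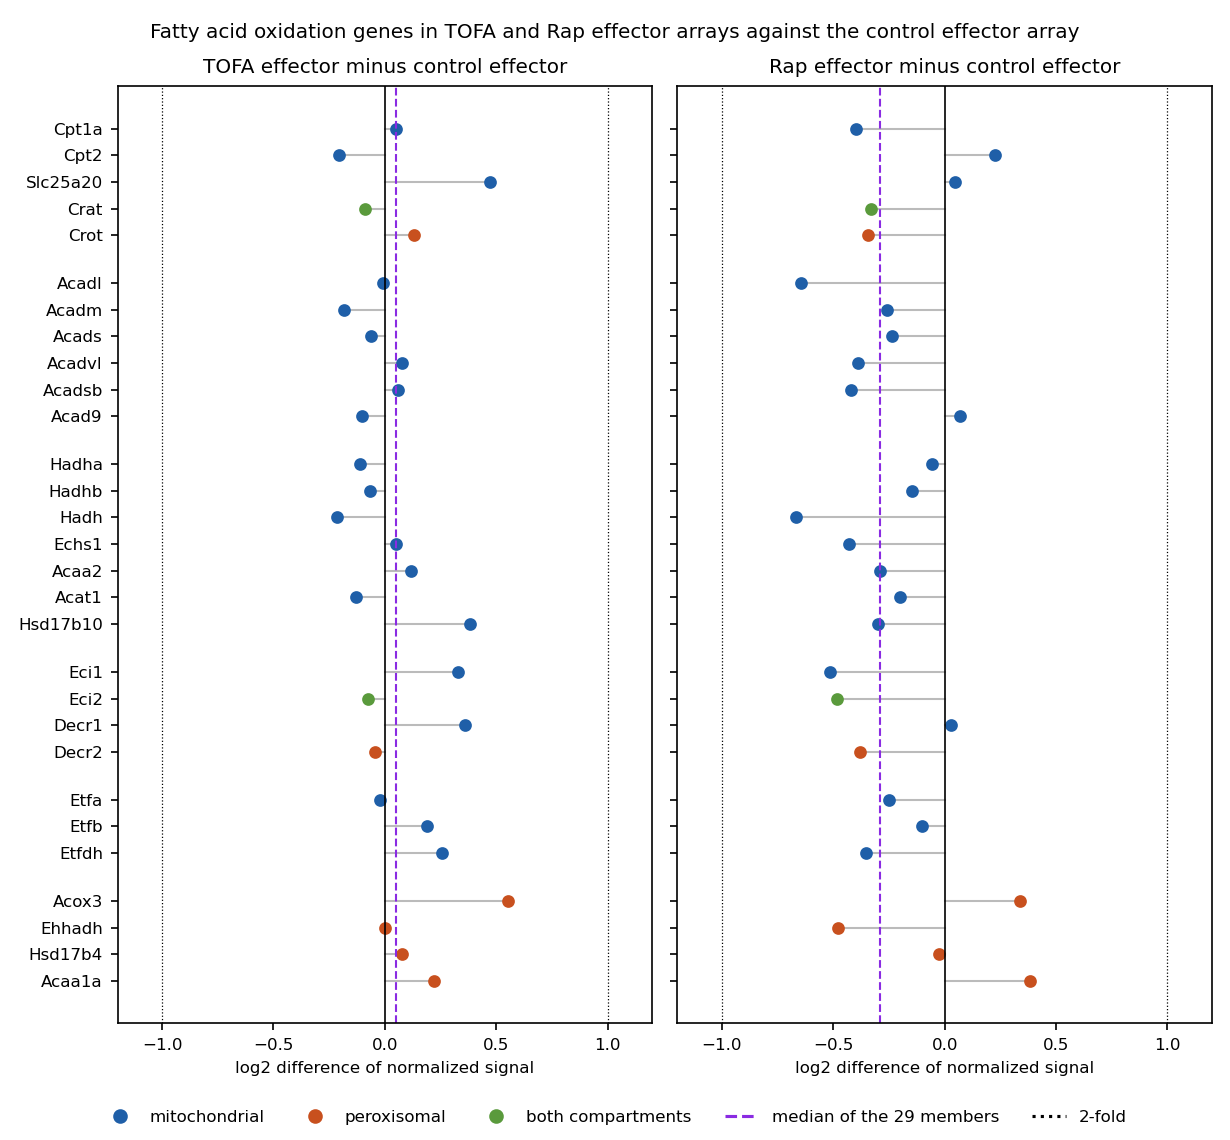
Each point is the log2 difference in normalized signal of 1 oxidation gene (rows, grouped by role from the carnitine transfer genes to the peroxisomal spiral), for TOFA minus control effector on the left and Rap minus control effector on the right. Colour gives the compartment, the dashed line the median of the 29 genes (0.05 and -0.29) and the dotted lines 2-fold. The TOFA points lie on both sides of 0, and 23 of the 29 Rap points lie below it.

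TOFA and Rap cells were also compared directly. This uses the same TOFA and Rap arrays as the comparisons with control. Its counts, and the rank of Rap among the effector arrays, therefore partly repeat those results and add no separate support. Of the 29 oxidation genes, 25 were above 0 and 4 below, with a median of 0.34, against 0.025 over all genes, of which 52.8% lay above 0 and 47.1% below, and of the genes at or above the 60th percentile on both arrays 52.7% lay above 0. None was 2-fold apart, while 4.59% of the 12783 genes compared were (3.25% higher and 1.35% lower). Higher by more than the probe set spread were 16 genes, against 23.2% of all genes, and 1 was lower (Cpt2, -0.43), against 17.7%. The dim other probe set of Cpt2 went the other way, with 64.6 in TOFA and 18.9 in Rap cells, the Rap value under the floor, and the mean over both probe sets gave 0.07. Eci1 differed most, with signals of 674 in TOFA and 375 in Rap cells (difference 0.85), followed by Hsd17b10 with 2121 in TOFA and 1324 in Rap cells (0.68) and Acadl with 7051 in TOFA and 4530.4 in Rap cells (0.64). Rap was the lowest of the 3 effector arrays for 22 of the 29 genes, against 29.2% of all genes, and the lowest of all 5 arrays for 12, against 11.2% of all genes. Both shares are over the 14406 genes above the floor on at least 1 array. Arrays tied at the floor did not count as lowest, which holds these shares down. The 29 genes, above the floor on all arrays, had no such ties.

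Control effector cells were set against naive cells to ask how Th1 culture bore on the same enzymes. The oxidation genes lay on both sides of 0, as genes in general did. Of the 29, 3 were at least 2-fold higher (Acadl, Etfb and Decr1), against 15.9% of the 13062 genes compared, and 1 was at least 2-fold lower (Ehhadh), against 11.4%, and 27.2% of all genes were apart in either direction. Neither share of the oxidation genes exceeds that of all genes. The median was 0.35, with 18 genes above 0, against 0.0345 over all genes, of which 51.9% lay above 0 and 48.1% below. With the values as deposited it was 0.17, against -0.0487 over all genes. Higher by more than the probe set spread were 10 genes and lower 3, against 26.7% and 22.7% of all genes. Of the 19 other probe sets of these genes that were compared, 12 had the sign of the chosen one. The mitochondrial median was 0.39 with 14 of 21 genes above 0, and the peroxisomal median was -0.22 with 2 of 6 above 0. The difference between compartments was not tested, and the median of all genes lay between the compartments. B cell marker signal summed to 1651 in control effector and 31251 in naive cells and myeloid marker signal to 176 and 5596 beside these differences, and their part in the result was not tested.

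Memory cells were compared with naive cells and with control effector cells. Against naive cells, 2 oxidation genes were at least 2-fold higher (Etfb and Crat), against 12.3% of the 13014 genes compared, and 1 was lower (Ehhadh), against 4.13%, with 16.4% of all genes apart in either direction. The median was 0.19 with 20 genes above 0, against -0.051 over all genes, of which 46.2% lay above 0 and 53.8% below (41.6% above 0 among genes at or above the 60th percentile on both arrays). Higher by more than the probe set spread were 9 genes and lower 3, against 23.4% and 21.8% of all genes. Against control effector cells, 1 was at least 2-fold higher (Acadm), against 14.2% of 13239 genes, and 1 lower (Acadl), against 14.1%, and 28.3% of all genes were apart in either direction. The median was 0.01, with 15 genes above 0 and 14 below, against 48.2% and 51.7% of all genes. Beyond the probe set spread, 6 genes were higher and 6 lower, against 24.7% and 25.8%. The memory array carried the highest summed myeloid marker signal (36044, with all 6 markers above the floor) and the highest summed B cell marker signal (45646). The part of those cells in these values was not tested.

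**Figure D2:**
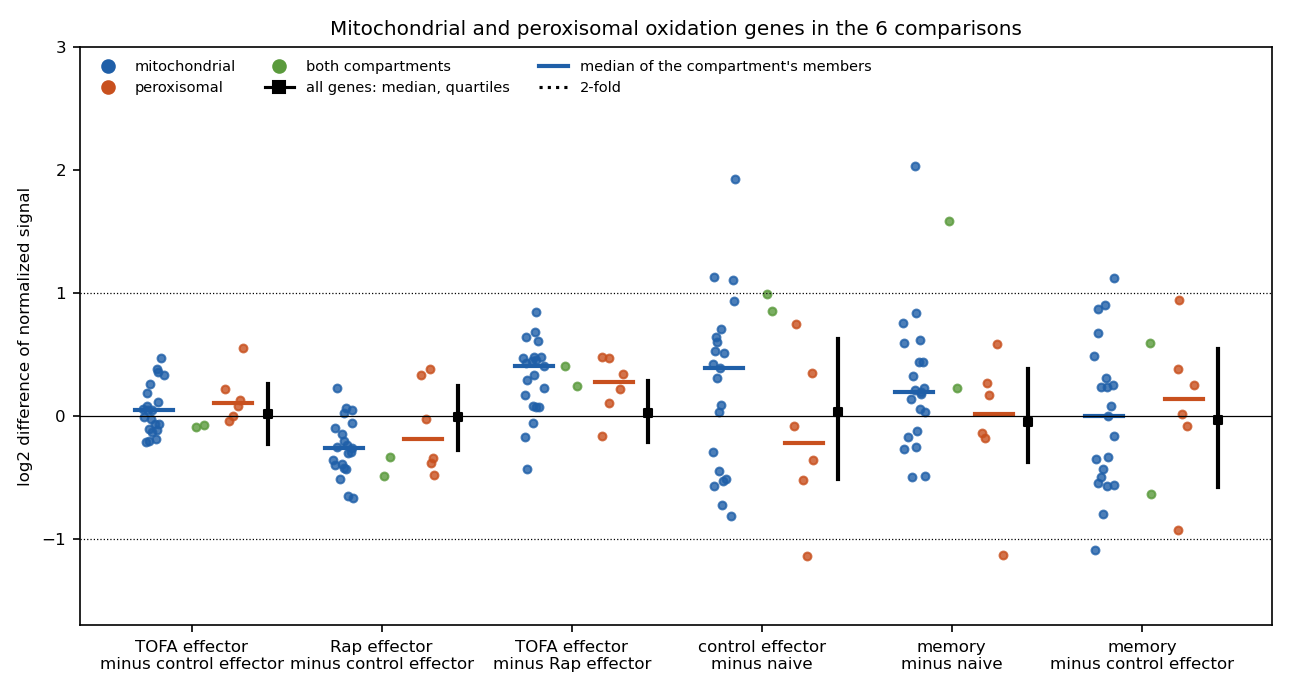
Log2 differences in normalized signal (vertical axis) of the mitochondrial, shared and peroxisomal oxidation genes in the 6 comparisons (horizontal axis), with a bar at the median of each compartment, and the median and quartiles of all genes in black. The mitochondrial and peroxisomal medians lie on opposite sides of 0 for control effector against naive cells (0.39 and -0.22) and on the same side for both TOFA and Rap cells against control.

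Among the carnitine transfer genes, Cpt1a had a signal of 1065 in TOFA effector, 780.1 in Rap effector, 1880.3 in memory, 1029 in control effector and 1812 in naive cells. On the chosen probe set, all 3 effector arrays lay below both resting arrays (memory and naive), and control effector cells were 1.76-fold lower than naive cells. The other probe sets of Cpt1a also lay lower in control effector than in naive cells, by -1.27 and -0.62. Both placed memory below naive cells, unlike the chosen probe set. The brighter of them had 635 (TOFA), 546 (Rap), 592 (memory), 819 (control effector) and 1970.0 (naive), a difference of -1.73 for memory against naive, where the chosen probe set gave 0.05. That brighter probe set also placed memory below TOFA and control effector cells. It gave -0.47 for memory against control effector cells, where the chosen probe set gave 0.87. Between TOFA and control effector cells the other probe sets differed by -0.37 and -0.0029, so the sign of that difference is not shared by the probe sets.

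Cpt2, which restores the acyl-CoA inside the mitochondrion, went the other way. Its signal was 514 in TOFA effector, 693 in Rap effector, 340.2 in memory, 592 in control effector and 409.9 in naive cells, with the effector arrays above both resting arrays. On its dim other probe set, Rap (18.9, under the floor) lay below memory (61.0). Crat, the carnitine acetyltransferase that buffers acetyl-CoA, had 289 in TOFA effector, 244 in Rap effector, 464 in memory, 307 in control effector and 154 in naive cells. Naive was its lowest array and memory its highest, 3.01-fold above naive, though a second probe set was under 2-fold (168 in memory and 87.6 in naive cells) and the dimmest was above the floor only in memory cells (51.3). Crot, the peroxisomal carnitine octanoyltransferase, stayed between 917 and 1387 on all 5 arrays, and Slc25a20 between 1411 and 2091.

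The acyl-CoA dehydrogenases, which take the first step of the mitochondrial spiral on chains of different length, held the gene with the largest difference between control effector and naive cells. Acadl had a signal of 7051 in TOFA effector, 4530.4 in Rap effector, 3335 in memory, 7095 in control effector and 1870.5 in naive cells. The effector arrays were all above the resting ones, and control effector cells were 3.79-fold higher than naive cells. Its second probe set was under the floor on all arrays. Acadm, the medium-chain dehydrogenase, ran opposite to Acadl, with 2094 in TOFA effector, 1989 in Rap effector, 5174 in memory, 2379.8 in control effector and 3439 in naive cells. Memory cells were 2.17-fold higher than control effector cells for Acadm and 2.13-fold lower for Acadl.

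The remaining dehydrogenases differed less. Acadvl, for very long chains, was between 1987 and 2752 on the effector arrays, against 1791 in memory and 1950.2 in naive cells, Acads, for short chains, between 521 and 614, against 416 and 469, and Acadsb, for short branched chains, between 379.9 and 530.2, against 343 and 312. For each of these genes the effector arrays lay above both resting arrays, by a gap as small as 1.02-fold for Acadvl. Acad9, which also serves the assembly of respiratory complex I, was between 451 and 569 on all arrays.

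Promoter sequence is shown for Cpt1a, Acadl and Acadm because their chosen probe sets carry the opposite patterns between effector and resting arrays. The brighter other probe set of Cpt1a did not share its pattern. The stretches run from 250 bases before to 50 bases after the RefSeq start (GRCm38.p6), and capitals mark the nuclear receptor motif AGGTCA, searched on both strands (its reverse strand reads TGACCT).
Cpt1a, chr19:3323051-3323350, + strand: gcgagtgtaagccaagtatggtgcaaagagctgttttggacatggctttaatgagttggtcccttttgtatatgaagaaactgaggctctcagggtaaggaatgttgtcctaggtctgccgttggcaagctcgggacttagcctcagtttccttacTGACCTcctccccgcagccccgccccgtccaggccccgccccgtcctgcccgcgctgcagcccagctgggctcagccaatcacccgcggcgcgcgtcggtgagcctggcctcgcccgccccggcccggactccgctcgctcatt
Acadl, chr1:66863260-66863559, - strand: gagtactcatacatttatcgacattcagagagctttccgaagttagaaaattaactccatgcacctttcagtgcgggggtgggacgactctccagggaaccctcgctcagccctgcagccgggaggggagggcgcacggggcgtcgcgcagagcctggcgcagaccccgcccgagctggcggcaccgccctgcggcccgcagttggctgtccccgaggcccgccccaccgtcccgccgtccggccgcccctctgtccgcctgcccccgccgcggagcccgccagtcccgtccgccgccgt
Acadm, chr3:153944594-153944893, - strand: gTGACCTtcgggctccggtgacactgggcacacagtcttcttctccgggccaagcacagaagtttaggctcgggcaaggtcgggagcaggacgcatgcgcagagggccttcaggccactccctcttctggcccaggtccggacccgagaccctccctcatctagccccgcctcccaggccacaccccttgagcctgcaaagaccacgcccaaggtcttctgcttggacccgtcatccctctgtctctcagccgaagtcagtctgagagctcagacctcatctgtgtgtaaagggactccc
The motif lay on the reverse strand 94 bases before the start of Cpt1a and 249 bases before that of Acadm, and was not in the window of Acadl. Of 23 oxidation genes with a promoter in the table, 4 held it (Acadm, Acadvl, Cpt1a and Echs1), against 16.3% of all 32851 promoters. Acadvl, like Acadl, had all effector arrays above the resting arrays, and the arrays of Echs1 overlapped. The motif was thus found with either pattern. The PPAR element AGGTCANAGGTCA, which overlaps it, was in none of the 23, against 0.0396% of all, and the ERR element TNAAGGTCA, which also contains it, was in none of the 23, against 1.28% of all. A match is only a description of the letters.

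Hydratase, hydroxyacyl-CoA dehydrogenase and thiolase genes of the mitochondrial spiral were within 2-fold in every comparison on the probe set chosen for each gene. Hadha and Hadhb encode the subunits of the trifunctional protein, which runs the last steps on long chains, yet their arrays were ordered differently. Hadha was between 872 and 942 on the effector arrays, against 748 in memory and 662 in naive cells, while Hadhb was between 3329 and 3688, against 5169.7 and 4528. Hadh was between 3725 and 5927 over the 5 arrays, Echs1, the short-chain hydratase, between 881 and 1469, and Hsd17b10 between 1324 and 2321. Of the thiolases, Acaa2 was between 1121 and 1612 outside naive cells and 2270.3 in them, and Acat1, which also acts on ketone bodies, was the flattest of the 29 genes, between 4142 and 4760.4.

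Several of these genes have probe sets that disagree. The other probe sets of Hadhb differed by -0.82 and -1.25 for control effector against naive cells, where the chosen one differed by -0.30, and by -0.90 and -0.81 for memory against naive cells, where the chosen one differed by 0.19. The dimmer of them was also higher in Rap than in control effector cells (249 in Rap and 172 in control effector cells). For control effector against naive cells, a second probe set of Acaa2 differed by 0.11 and one of Hsd17b10 by 0.03, where the chosen ones differed by -0.73 and -0.51, and both other probe sets of Acat1 differed by -0.14 and -0.12, where the chosen one differed by 0.04. For memory against control effector cells, the signs were opposite to the chosen probe sets for both others of Acaa2 (-0.10 and -0.13), the brighter other of Hadhb (-0.08), the other of Hsd17b10 (-0.23) and 1 of Acat1 (0.13). For memory against naive cells, the dim probe set of Hadh differed by -0.48 and 1 of Acat1 by -0.40, against the sign of the chosen ones. Outside this role, Cpt1a, Acad9, Cpt2, Decr1, Hsd17b4 and Acaa1a also had a probe set of opposite sign in at least 1 comparison. The brighter other probe set of Acad9 differed by -0.20 in Rap against control effector cells, and that of Hsd17b4 by -0.17 in TOFA against control effector cells.

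Among the enzymes for unsaturated chains, Decr1 had a signal of 1010.5 in TOFA effector, 803 in Rap effector, 619.5 in memory, 788 in control effector and 366 in naive cells. Naive cells were lowest, 2.15-fold under control effector cells, and all effector arrays were above both resting arrays. The dimmer second probe set, between 61.8 and 104, differed by -0.56 for control effector against naive cells. Decr2, the peroxisomal reductase, was between 285 and 371 on the effector arrays, against 195 in memory and 221 in naive cells. Eci2, a shared isomerase, was between 2033 and 2844, against 1835 and 1572, whereas Eci1 was between 375 and 674, against 856 and 731.

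The electron transfer flavoprotein, which hands electrons from the dehydrogenases to the respiratory chain, has subunits encoded by Etfa and Etfb and a dehydrogenase encoded by Etfdh. All 3 genes were higher in control effector and in memory than in naive cells. Etfb had a signal of 2388 in TOFA effector, 1954 in Rap effector, 3913 in memory, 2097 in control effector and 956 in naive cells. Memory cells were 4.09-fold and control effector cells 2.19-fold above naive cells, from a single probe set. Etfa had 2516 in memory, 3547 in control effector and 1858 in naive cells, so its order of memory and control effector was opposite to that of Etfb. Etfdh was between 1068 in naive and 1941 in TOFA effector cells.

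In the peroxisomal spiral, Ehhadh, the bifunctional hydratase and dehydrogenase, had a signal of 135 in TOFA effector, 96.5 in Rap effector, 136 in memory, 134 in control effector and 297 in naive cells. Naive was the highest array, with control effector 2.21-fold and memory 2.19-fold lower, at signals near the 60th percentile. Hsd17b4, the other bifunctional enzyme, was between 1142 and 1229.5 on the effector arrays, against 2238 in memory and 1494 in naive cells. Acaa1a was between 274 and 358, against 259 and 215, and Acox3 between 70.9 and 104 over all 5 arrays.

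**Figure D3:**
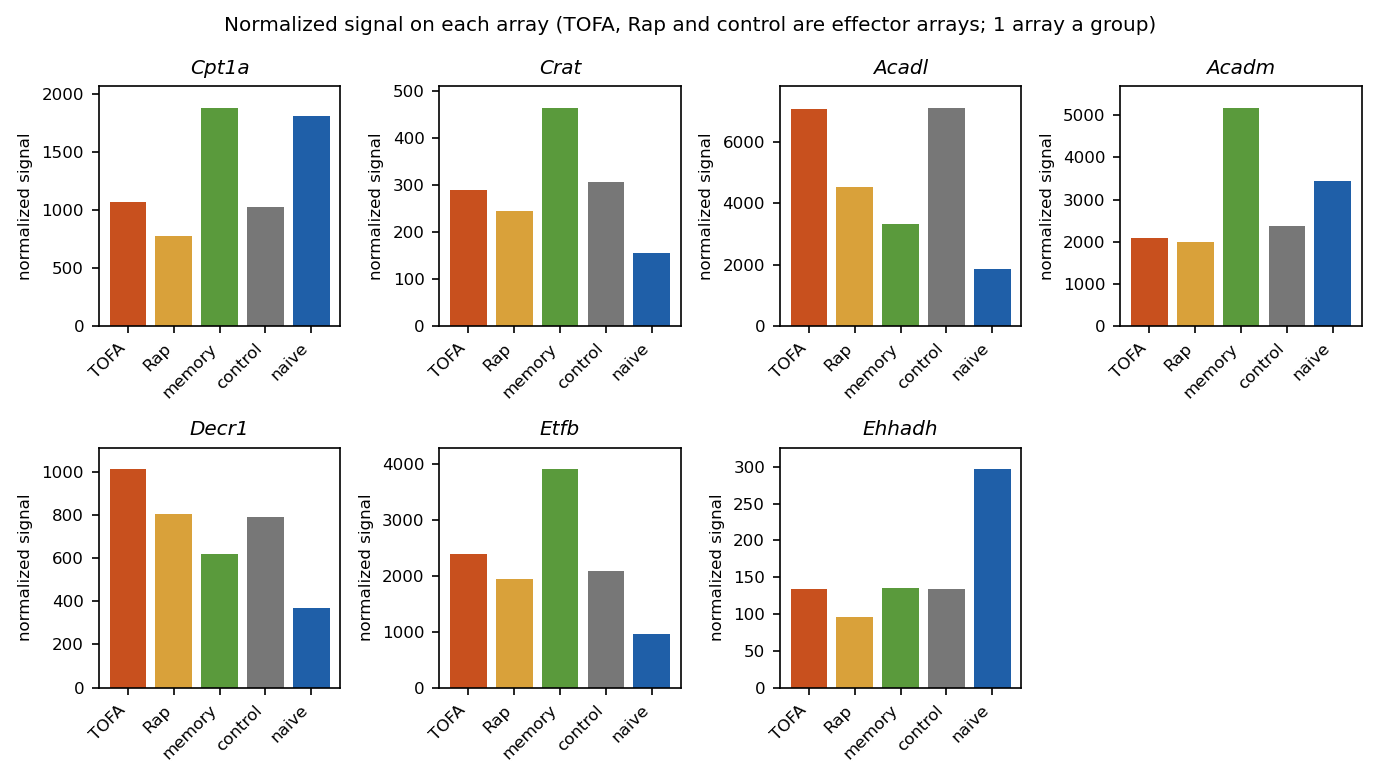
Bars give the normalized signal (vertical axis, from 0, a scale of its own in each panel) of Cpt1a and of the 6 oxidation genes that were 2-fold apart in any comparison, on each of the 5 arrays. Cpt1a and Acadm are lowest on the 3 effector arrays, Acadl and Decr1 are lowest on the memory and naive arrays, Etfb and Crat are highest on the memory array, and Ehhadh is highest on the naive array.

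Set against the resting arrays together, the effector arrays (TOFA, Rap and control) were all above both resting arrays (memory and naive) for 11 of the 29 oxidation genes, against 25.3% of all genes, and all below them for 7, against 21.0%. Both shares are over the 14406 genes above the floor on at least 1 array, and ties at the floor, which the 29 genes do not have, count as overlap. The 11 were Acadl, Decr1, Decr2, Cpt2, Etfa, Eci2, Acadsb, Acaa1a, Acads, Acadvl and Hadha, and the 7 were Acadm, Cpt1a, Hsd17b4, Hadhb, Acaa2, Eci1 and Ehhadh. Both lists rest on the probe set chosen for each gene. For Cpt1a, Hadhb, Acaa2, Decr1 and Cpt2, another probe set had effector and resting arrays that overlapped. The brighter other probe set of Hadhb, for example, had 3617 in control effector and 3432 in memory cells. Gaps between the groups were small, from 1.02-fold to 1.36-fold (Acadl) among the first and from 1.01-fold (Ehhadh) to 1.70-fold (Cpt1a) among the second. With the values as deposited, only 7 genes were above, and 10 below. Against the naive array alone, with memory left out, 14 were above and 9 below, under a rule that is easier for any gene to meet. No share of all genes was taken for either of these settings, so their counts cannot be read against the percentages above.

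**Figure D4:**
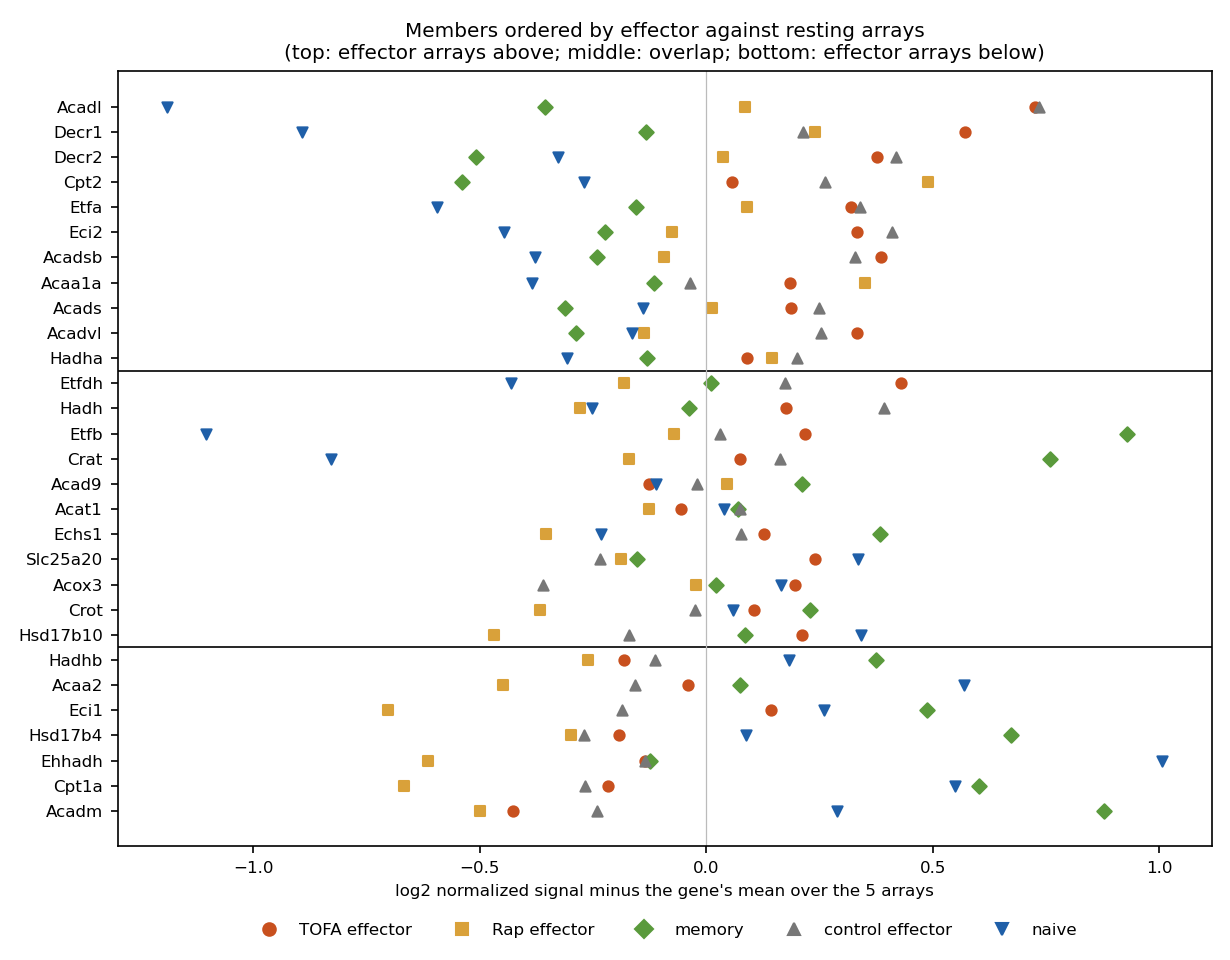
Log2 normalized signal of each oxidation gene, on its chosen probe set, minus its mean over the 5 arrays (horizontal axis), with 1 symbol for each array. The top block holds the 11 genes with all effector arrays above memory and naive, the bottom block the 7 genes with all effector arrays below, and the middle block the 11 genes whose arrays overlap. Rap effector is the leftmost effector symbol for 22 of the 29 genes.

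Other genes of the pathway were described in the same way. Of 39 measured genes for activation, malonyl-CoA, further peroxisomal steps and regulation, 34 could be compared, of which 26 lay below 0 in Rap against control effector cells (median -0.15), against 50.5% of all genes, and 3 were at least 2-fold lower, against 3.91%. These were Acacb, the acetyl-CoA carboxylase of the mitochondrial surface (at least 3.09-fold lower, with 8.43 in Rap and 134 in control effector cells), Ivd, which acts in leucine breakdown (194 in Rap and 392 in control effector cells), and Acot13, an acyl-CoA thioesterase (538 in Rap and 1131 in control effector cells). In TOFA against control effector cells the median was 0.08, and 1 gene was at least 2-fold higher and 1 lower, against 2.47% and 2.14% of all genes. Acot2, a mitochondrial acyl-CoA thioesterase, was 3.03-fold higher (503 in TOFA and 166 in control effector cells), and Acacb 2.60-fold lower (51.6 in TOFA and 134 in control effector cells). Pecr, a peroxisomal reductase, was 2.06-fold higher in TOFA than in Rap cells (347 in TOFA and 168 in Rap cells), 1 of 34 genes compared, against 3.25% of all genes. With the mean over probe sets Pecr was not called. Acot2 has near copies, Acot1 among them, so its signal may be shared.

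In control effector against naive cells, 7 of the 33 pathway genes compared were at least 2-fold higher and 3 lower, against 15.9% and 11.4% of all genes. With the control effector signal before the naive one in each pair, higher were the acyl-CoA synthetase genes Acsl3 (1026 and 302), Acsl4 (4341 and 1760.4) and Acsl6 (225 and 18.7), Acacb (134 and 42.5), Hacl1 of peroxisomal alpha-oxidation (988 and 405), and the nuclear receptors Ppard (287 and 111) and Pparg (151 and 19.5). The naive signals of Acsl6, Acacb and Pparg were under the floor, so these genes were at least 5.18-fold, 3.09-fold and 3.49-fold higher. Lower were Acot2 (166 and 687), Scp2, a peroxisomal thiolase and sterol carrier (4036 and 9005), and the coactivator Ppargc1b (393 and 1244). The same list had 5 of 31 genes higher and none lower in memory against naive cells, against 12.3% and 4.13% of all genes, namely Pparg, Rxra (the partner of the PPAR receptors), Acot1, Abcd2 (a peroxisomal transporter) and Ech1. Pparg had 901 in memory and 19.5 in naive cells (at least 20.8-fold), and Rxra 741 in memory and 79.0 in naive cells, on the array where the myeloid markers were highest, and the part of those cells was not tested. Acot1 had 503 in memory and 5.69 in naive cells (at least 11.6-fold), Abcd2 299 in memory and 9.34 in naive cells (at least 6.89-fold) and Ech1 3190.4 in memory and 1354 in naive cells. Against control effector cells, 8 of 35 were higher in memory cells (Abcd2, Acot1, Acot2, Ivd, Pparg, Ppargc1b, Rxra and Scp2) and 5 lower (Acsl3, Acsl4, Acsl6, Hacl1 and Ppard), against 14.2% and 14.1% of all genes.

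Genes of neighbouring pathways were set beside the oxidation genes. In Rap against control effector cells, the 16 measured TCA cycle genes had a median of -0.20 with 15 below 0, and the 12 measured peroxisome biogenesis genes a median of -0.28 with 9 below 0, beside -0.29 for the oxidation genes. In TOFA against control effector cells the medians were -0.07 and -0.0013, beside 0.05. The differences between these lists were not tested. In control effector against naive cells they were 0.27 and 0.29, beside 0.35.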

How the data were processed

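The deposited table gives 1 linear intensity per probe set and array. The authors made it with GCOS and Affymetrix Expression Console, per the submitters' processing notes, and the algorithm is not named there. The mean after trimming 2% at each end was 500.003 on every array. Array medians spanned 0.66 (log2), so the 5 arrays were quantile normalized after 64 control probe sets were set aside, with Python 3.11.15, pandas 2.3.3 and NumPy 2.4.6. A single symbol was listed for 34945 probe sets in the 2016 platform annotation. The floor was the 40th percentile, and a pair of arrays both at or under it was not compared. The code was tested on simulated data. With 1 array per group no test was made, and precision is limited by that number. The genes, lists, motifs and naming rule (Cpt1a, Cpt2, every oxidation gene or other pathway gene at least 2-fold apart, and ranges for the rest) were chosen with earlier results of these data known. Promoters come from RefSeq. The alternatives tried were unnormalized values, a 20th or a 60th percentile floor, the floor added as a constant, the mean over probe sets, leaving out _x_at and _s_at probe sets and, chosen after seeing the data, leaving out the memory array.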

Additional observations from a re-analysis of the deposited data

How the results depend on the processing

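Up to 7 alternatives were run for each of 105 results, since leaving out the memory array gives no value for its own comparisons and a higher floor none for genes under it. Of the 697 values obtained, 649 did not move (called genes stayed past 2-fold the same way, counts stayed within 1.5 times, and uncalled differences and medians within the spread between probe sets). That spread is wide for a median and lets values near 0 change sign, so the medians' ranges are given. The Rap against control median lay between -0.30 and -0.25 with 22 to 24 genes below 0, and the TOFA against Rap median between 0.29 and 0.35 with 23 to 26 above 0. The median for control effector against naive cells lay between 0.17 (values as deposited) and 0.37, for TOFA against control effector cells between 0.0008 and 0.07, and for memory against naive cells between 0.09 and 0.20. The mitochondrial median for control effector against naive cells lay between 0.21 and 0.40 and the peroxisomal between -0.36 and -0.08. The peroxisomal median for memory against naive cells took either sign (-0.14 to 0.19), as did the median of the 29 genes for memory against control effector cells (-0.0034 to 0.23). With the values as deposited, the median of all genes was 0.17 for memory against control effector cells, and that of the oxidation genes lay 0.06 above it.

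The called counts of oxidation genes moved as follows, and the cause was not tested except where fewer probe sets entered. With the mean over probe sets, 1 gene was 2-fold lower in Rap against control effector cells (Hadh), 1 higher in control effector against naive cells, 1 higher and 14 below 0 in memory against naive cells, and 0 lower in memory against control effector cells. With the 60th percentile floor or the added constant, 0 were lower in control effector or in memory against naive cells. With the values as deposited, 0 were lower in memory against naive and 0 higher in memory against control effector cells, and 7 had all effector arrays above the resting arrays. Without _x_at and _s_at probe sets, which left 27 genes, 1 was higher in memory against naive cells.

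For the other pathway genes, the 20th percentile floor gave 3 lower in TOFA and 6 lower in Rap against control effector cells, 4 higher and 1 lower in TOFA against Rap cells, 13 higher in control effector against naive cells and 8 higher in memory against naive cells. The 60th percentile floor gave 0 lower in TOFA against control effector cells, 3 higher in control effector against naive cells and 3 lower in memory against control effector cells. The added constant gave 0 lower in TOFA against control effector cells and 2 higher in TOFA against Rap cells, and the mean over probe sets 0 for each. The values as deposited gave 1 higher in Rap against control effector cells. No paired analysis was possible because each group has 1 array.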
